A study of Mus musculus with 4 samples.

Results

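The genes described are 9 oncofetal genes of the Lin28 and let-7 axis, *Lin28a*, *Lin28b*, *Hmga1*, *Hmga2*, *Igf2bp1*, *Igf2bp2*, *Igf2bp3*, *Trim71* and *Arid3a*. They were chosen by gene symbol and are 9 of the 52636 gene identifiers counted in each library. All 9 were among the 19041 genes with enough reads to be tested, although *Lin28a* entered that set through its control libraries alone.

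RNA-seq was performed on tdTomato+ cells that were sorted by FACS from embryonic mouse kidneys at about E12.75, in 2 Control and 2 *Eya1*cKO libraries of 5000 cells each. Every embryo carried the *Eya1* CreER allele, in which a tamoxifen-inducible Cre is driven by the *Eya1* locus, together with the R26-tdTomato reporter. *Eya1*cKO embryos carried Eya1 fl/fl in addition. Both groups received tamoxifen, and kidneys were taken 48 h after it was first given, so the control cells also had active Cre. The strain background was mixed, from C57BL/6J and 129/Sv. Suspensions were pooled ahead of the sort, and each library of a genotype was made from its own portion of cells from that sort, so that p-values measure the spread between such portions, which may be technical. The targeted gene *Eya1* was at 189 and 171.5 CPM (reads scaled to library size) in the controls, and the *Eya1*cKO libraries were at 16.7 and 12.5 CPM, 8.08% of the control mean (edgeR adjusted p = 1.9e-04).

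Lin28a and Lin28b are RNA-binding proteins that bind precursors of the let-7 microRNAs and hold back their maturation. Mature let-7 pairs through its seed, bases 2 to 8, with sites in the 3' UTRs of messenger RNAs and represses them, and the Lin28 mRNAs are themselves among its targets, so that the proteins and the microRNA restrain each other. Genes of this axis are high in embryonic progenitors, are turned down as tissues mature and return in many tumours, and in the kidney the Lin28 proteins are known for setting when nephron formation ends.

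The let-7 family of the mouse is shown first because its seed defines the sites in the messages described here. Among the mature let-7 and miR-98 sequences in RefSeq (GRCm38.p6), mmu-let-7j carries the seed GAGGUAU and the others GAGGUAG. Representatives are printed 5′ to 3′ with the seed in capitals.
mmu-let-7a-5p: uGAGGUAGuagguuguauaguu
mmu-let-7g-5p: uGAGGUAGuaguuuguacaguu
mmu-miR-98-5p: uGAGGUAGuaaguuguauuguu
mmu-let-7j: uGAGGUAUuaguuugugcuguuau

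The match to the common seed on a messenger RNA is CTACCTC, a 7-mer, and the 8-mer CTACCTCA adds the A that faces the first base of the microRNA. Every 8-mer therefore contains a 7-mer. The sense strand of the longest annotated 3' UTR of each gene (GENCODE M21, GRCm38) was searched. The 8-mer was present in 8 of the 9 genes, and *Hmga1* held a 7-mer alone. In the same search 3.06% of 21037 genes with a 3' UTR held an 8-mer, 9.02% a 7-mer and 0.15% at least 2 8-mers. The genes had been chosen as members of the let-7 axis, so this high share is a description of the choice. *Trim71* held 4 8-mers in a 3' UTR of 5512 bases, *Igf2bp1* 3 in 6337 bases and *Lin28a* 2 in 2775 bases, whereas *Lin28b*, *Hmga2*, *Igf2bp2*, *Igf2bp3* and *Arid3a* held 1 each. When 7-mers were counted, *Trim71*, *Igf2bp1*, *Hmga2* and *Lin28b* each held 4 matches.

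The *Trim71* sites on the minus strand of chromosome 9 are shown because they are the most numerous among the 9 genes. Each line ends with the match, in capitals. The first pair lies close to the stop codon, at positions 166 and 262 of the 3' UTR, and the second pair at positions 3591 and 3617.
Trim71, chr9:114512472-114512501: aaagtacaacattgcctaagtcCTACCTCA
Trim71, chr9:114512376-114512405: cctgtgaagtgataatttctatCTACCTCA
Trim71, chr9:114509047-114509076: gattttgtttagtatggattttCTACCTCA
Trim71, chr9:114509021-114509050: ctcaattttggcaaaaagttgtCTACCTCA

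The 8-mer sites of *Lin28a*, *Lin28b*, *Hmga2* and *Igf2bp1* are shown, without any further 7-mers, beside the single match of *Hmga1*, a 7-mer, for comparison, since these genes span the widest and the narrower differences described next. *Lin28b* and *Hmga2* carry their only 8-mer near the start of the 3' UTR, at positions 36 and 58. The *Hmga1* match, on the plus strand of chromosome 17, lacks the final A, and the same bases stand in the near copy *Hmga1b*.
Lin28a, chr4:134005189-134005218: ttggagtgcacagcctgttgaaCTACCTCA
Lin28a, chr4:134004551-134004580: atgctttgagatcgccacaaacCTACCTCA
Lin28b, chr10:45381022-45381051: tcccttcacccgggcgggaagtCTACCTCA
Hmga2, chr10:120364224-120364253: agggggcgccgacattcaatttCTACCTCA
Igf2bp1, chr11:95961778-95961807: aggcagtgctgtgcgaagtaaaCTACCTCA
Igf2bp1, chr11:95959357-95959386: tgggaaccagcagtgctattaaCTACCTCA
Igf2bp1, chr11:95958763-95958792: actacgagtataaatggatgaaCTACCTCA
Hmga1, chr17:27563270-27563298: catcttctcctctgttcacaaaCTACCTC

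The comparison of *Eya1*cKO with Control asks which of these genes changed when *Eya1* was removed. Of the 9 genes, 6 fell in *Eya1*cKO (edgeR quasi-likelihood test, adjusted p under 0.05 over all genes tested), where 4.41% of all genes tested fell. They were *Hmga2*, *Trim71*, *Igf2bp1*, *Hmga1*, *Igf2bp2* and *Igf2bp3*. None rose in edgeR, and none did so at an unadjusted p under 0.05 or in DESeq2, beside 5.15% of all genes tested that rose in edgeR. *Lin28a*, *Lin28b* and *Arid3a* did not pass the threshold. For each of the 9 genes the higher *Eya1*cKO library was still below the lower control, an ordering seen in 30.0% of all genes tested. The 9 genes had a median log2 fold change of -0.81, and all genes tested one of 0.016. With any 1 library left out all 9 genes kept a negative log2 fold change. The spread then came from the group with 2 libraries alone. The number called, among the 9 and over all genes, depended on which group that was. In sorted bulk samples, fewer cells of a type and less RNA per cell cannot be told apart.

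**Figure D1:**
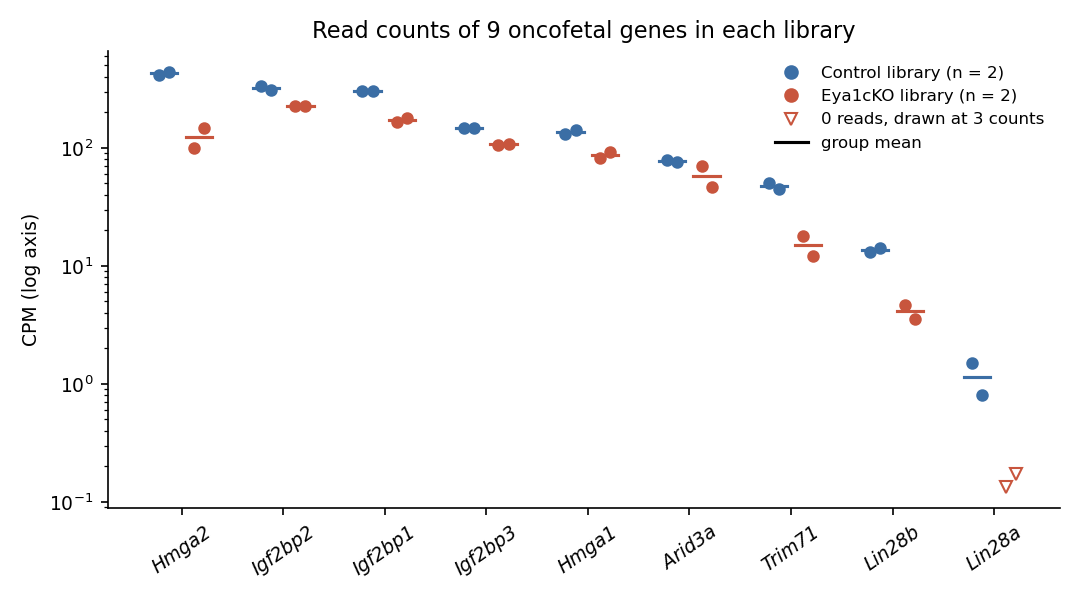
CPM (reads of a gene scaled to library size, log axis) in each library, with horizontal bars for the mean of the 2 libraries of a group and open triangles for libraries with 0 reads, drawn at the level of 3 counts. For every gene both *Eya1*cKO points lie below both Control points, with the widest gaps at *Hmga2*, *Trim71*, *Lin28b* and *Lin28a*.

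*Lin28a* (ENSMUSG00000050966, chr4:134003330-134018841, minus strand) was the least abundant of the genes. It had 52 and 30 reads in the Control libraries and 0 in both *Eya1*cKO libraries. The controls thus stood at 1.49 and 0.801 CPM, whereas a count of 0 allows up to 0.133 and 0.171 CPM (3 counts) in the *Eya1*cKO libraries. Against these per-library limits the *Eya1*cKO mean was at least 7.54-fold lower. The edgeR adjusted p was 0.12. The annotation of *Lin28a* shares 5.86% of its exonic length with *Gm13061* on the opposite strand.

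*Lin28b* (ENSMUSG00000063804, chr10:45376620-45486395, minus strand), the paralogue of *Lin28a*, had 462 and 529 reads in the controls and 106 and 62 in *Eya1*cKO. These correspond to 13.2 and 14.1 CPM against 4.69 and 3.53 CPM. The mean was 13.7 ± 0.635 CPM (SD, n = 2) in Control and 4.11 ± 0.818 CPM in *Eya1*cKO, 30.1% of control. The groups did not overlap, but the log2 fold change of -1.71 (SE 0.45, 95% interval -2.78 to -0.64) had an edgeR adjusted p of 0.062. It passed in DESeq2 (adjusted p = 0.0061) and in edgeR with at least 10 reads in every library (adjusted p = 0.038). Over the alternatives that kept all 4 libraries the adjusted p ran from 0.0061 to 0.15. The log2 fold change was -1.96 without *Eya1*cKO 1 and -1.56 without *Eya1*cKO 2. Per length of exon *Lin28b* exceeded *Lin28a* by 3.92 and 7.77 times in the Control libraries.

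*Trim71* (ENSMUSG00000079259, chr9:114507133-114564369, minus strand), also called *Lin41*, encodes an RNA-binding ubiquitin ligase and is a classical target of let-7. It was at 50.8 and 44.7 CPM in the controls and at 17.9 and 12.03 CPM in *Eya1*cKO. The level fell from 47.8 ± 4.27 to 14.98 ± 4.17 CPM, 31.4% of control, with a log2 fold change of -1.64 (SE 0.26, edgeR adjusted p = 0.012). Both mutant libraries were far below the controls, and they also differed between themselves, at 17.9 and 12.03 CPM (405 and 211 reads in libraries of unequal depth).

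The *Hmga* genes encode small AT-hook proteins that bind DNA and loosen chromatin, and *Hmga2* is the member most restricted to embryonic tissue. *Hmga2* (ENSMUSG00000056758, chr10:120361275-120476469, minus strand) was at 416.5 and 443 CPM in the controls and at 99.5 and 147 CPM in *Eya1*cKO. Its mean fell from 430 ± 19 to 123 ± 33.9 CPM, which left 28.7% of control. The log2 fold change of -1.82 (SE 0.16, 95% interval -2.19 to -1.45, edgeR adjusted p = 0.0015) was close to those of *Lin28b* and *Trim71*, and their order changed with the library left out. Without *Eya1*cKO 1 the values were -1.56 for *Hmga2*, -1.96 for *Lin28b* and -1.998 for *Trim71*. *Hmga1* (ENSMUSG00000046711, chr17:27556497-27563674, plus strand) was at 130 and 143 CPM in the controls and at 81.4 and 92.1 CPM in *Eya1*cKO. It fell to 63.6% of control, a log2 fold change of -0.66 (SE 0.12, edgeR adjusted p = 0.022).

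Reads of *Hmga1* are uncertain because 46.9% of the 75-base windows of its transcripts also occur in its near copy *Hmga1b* on chromosome 11 or in *AI413582*. *Hmga1b* (ENSMUSG00000078249) had 44.8 and 49.4 CPM in Control, and in *Eya1*cKO it had 20.5 and 18.2 CPM. With the reads of *Hmga1* and *Hmga1b* added together the log2 fold change was -0.80 and the edgeR adjusted p was 0.008.

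*Igf2bp1*, *Igf2bp2* and *Igf2bp3* encode cytoplasmic RNA-binding proteins that stabilise, localise or control the translation of bound messages, among them the *Igf2* message for which they are named. All 3 fell, with log2 fold changes smaller in size than those of *Hmga2* and *Trim71*. *Igf2bp1* (ENSMUSG00000013415, chr11:95957163-96005940, minus strand) was at 301 CPM in both controls and at 165 and 180 CPM in *Eya1*cKO. The log2 fold change was -0.81 (SE 0.09, edgeR adjusted p = 0.0034), which left 57.2% of control.

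*Igf2bp2* (ENSMUSG00000033581, chr16:22059009-22163299, minus strand) was at 336 and 308 CPM in the controls and at 227 CPM in both *Eya1*cKO libraries. It fell to 70.4% of control, a log2 fold change of -0.51 (SE 0.09, edgeR adjusted p = 0.015). *Igf2bp3* (ENSMUSG00000029814, chr6:49085223-49214957, minus strand) was at 148 and 146 CPM in the controls and at 107 and 108 CPM in *Eya1*cKO. It fell to 73.2% of control, with a log2 fold change of -0.45 (SE 0.10, edgeR adjusted p = 0.041). The libraries of each genotype lay close together for *Igf2bp3*, but 3 other choices of scaling, filter or test ended the call, with adjusted p from 0.052 to 0.072. Exons of *Igf2bp3* overlap those of *Malsu1* on the opposite strand over 18.7% of their length, and *Malsu1* had 579, 454, 196 and 89 reads.

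*Arid3a* (ENSMUSG00000019564, chr10:79927043-79955018, plus strand) encodes a DNA-binding transcription factor of the ARID family. It was at 78.8 and 75.5 CPM in the controls and at 70.0 and 46.5 CPM in *Eya1*cKO, so that the first mutant library lay much nearer to the controls than the second. The log2 fold change was -0.38 (SE 0.19, 95% interval -0.83 to 0.08, edgeR adjusted p = 0.25). The value rested on which mutant library was used. Without *Eya1*cKO 1 it was -0.74, and without *Eya1*cKO 2 it was -0.15.

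**Figure D2:**
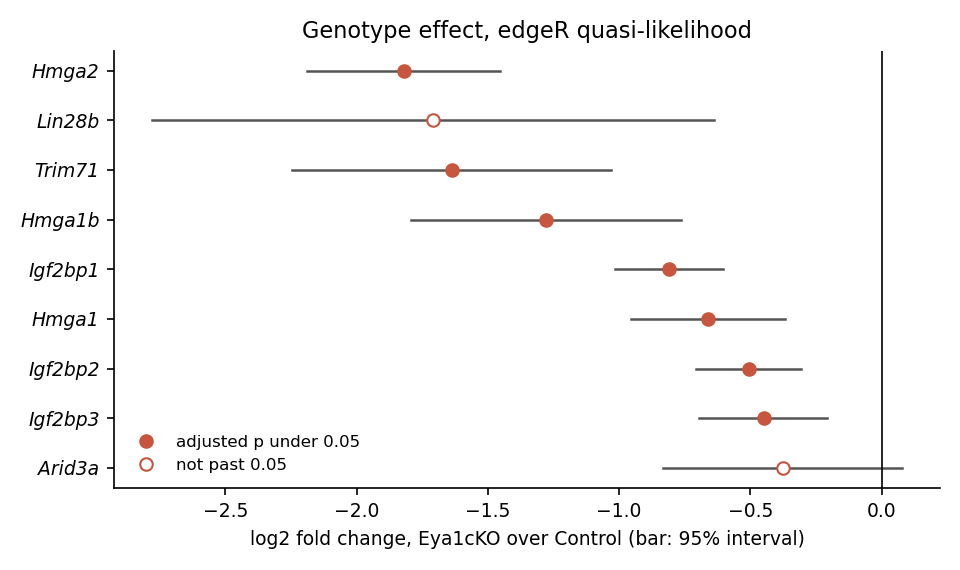
Log2 fold change of *Eya1*cKO over Control (points) with its 95% interval (bars) from edgeR for the 8 genes with reads in every library and for *Hmga1b*, filled where the adjusted p was under 0.05. *Hmga2*, *Lin28b* and *Trim71* lie between -1.82 and -1.64, the other oncofetal genes between -0.81 and -0.38, and the interval of *Arid3a* reaches past 0.

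Levels can be compared between genes only per length of exon, here as FPKM computed from the CPM and the exonic length. In Control, *Hmga1* at 64.2 ± 4.16 and *Hmga2* at 63.5 ± 2.81 FPKM were highest and overlapped each other, with the same uncertainty about reads of *Hmga1* that its near copy shares. *Igf2bp2* followed at 43.5, *Igf2bp1* at 31.1, *Igf2bp3* at 18.0 and *Arid3a* at 13.9 FPKM, and *Trim71*, *Lin28b* and *Lin28a* were lowest at 5.12, 1.51 and 0.287 FPKM. Apart from *Hmga1* and *Hmga2*, neighbours in this order did not overlap. In *Eya1*cKO the order began with *Hmga1* at 40.8 and *Igf2bp2* at 30.6 FPKM. *Hmga2* came to 18.2 ± 5.0 FPKM there and overlapped *Igf2bp1* at 17.8 ± 1.05 FPKM. The remaining genes kept their ranks, from *Igf2bp3* at 13.2 FPKM to *Lin28a* at 0.

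Ratios within a library compare related genes directly and do not depend on library scaling. The ratio of *Hmga2* to *Hmga1* per length was 1.0 and 0.975 in the controls and 0.384 and 0.502 in *Eya1*cKO. The level of *Hmga1* in these ratios is uncertain because of the sequence it shares with *Hmga1b* and *AI413582*. The log2 ratio thus differed by -1.17 between the groups, without overlap. The ratio of *Igf2bp1* to *Igf2bp2* was 0.686 and 0.747 in the controls and 0.557 and 0.606 in *Eya1*cKO, a log2 difference of -0.30. The ratio of *Igf2bp1* to *Igf2bp3* went from 1.72 and 1.74 to 1.30 and 1.40, a log2 difference of -0.36. *Igf2bp3* relative to *Igf2bp2* overlapped between the groups, at 0.399 and 0.431 in the controls and 0.427 and 0.434 in *Eya1*cKO. The two-sided exact permutation p was 0.333 for each of the first 3 ratios and 0.667 for the last (0.444 and 0.667 after adjustment over the 4 ratios), and 0.333 is the smallest p that 2 libraries against 2 allow.

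**Figure D3:**
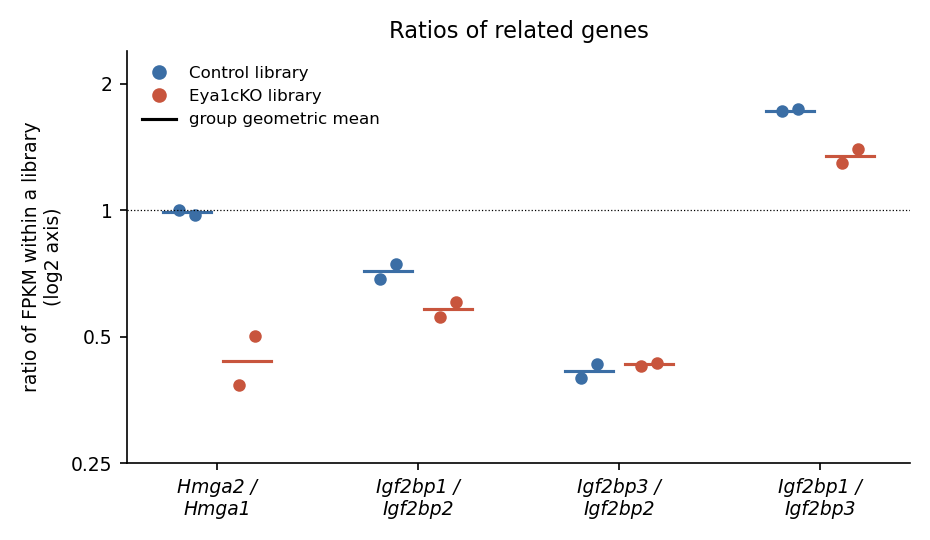
Ratio of the FPKM of related genes within each library (log2 axis), with bars for the geometric mean of each group. The Control and *Eya1*cKO points separate for *Hmga2* over *Hmga1* and for *Igf2bp1* over either paralogue, and overlap for *Igf2bp3* over *Igf2bp2*.

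The surroundings of these genes in the let-7 pathway were read from lists of known genes. Among 12 tested genes of microRNA processing and silencing, 2 fell and 1 rose, with a median log2 fold change of -0.14, where 4.41% of all genes tested fell and 5.15% rose. *Xpo5*, which exports precursors from the nucleus, fell from 139 and 147 to 102 and 79.7 CPM (log2 fold change -0.65, SE 0.14, edgeR adjusted p = 0.032). The paralogous GW182 proteins that work with Argonaute went opposite ways, since *Tnrc6a* fell with a log2 fold change of -0.37 and *Tnrc6b* rose with one of 0.51 (edgeR adjusted p = 0.038 and 0.026). The nucleases *Drosha* and *Dicer1*, which cut the precursors, were at -0.22 and -0.28 and did not pass. These 3 calls were lost without the filter on low counts and with the legacy edgeR method, with adjusted p from 0.05 to 0.066, and that of *Tnrc6a* also with library totals alone (0.053). *Dgcr8* was listed at 0 in all 4 libraries, for a reason that was not tested, so this is not read as absence of its expression.

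The cofactors that act on let-7 precursors showed 2 of 7 genes lower and none higher, where 4.41% of all genes tested fell and 5.15% rose. DESeq2 and an unadjusted edgeR p under 0.05 gave the same counts. *Khsrp*, which favours let-7 processing, fell by 0.45 and *Hnrnpa1*, which opposes it, fell by 0.47 on the log2 scale (edgeR adjusted p = 0.02 and 0.0077). *Tut4*, the uridylase that Lin28 recruits to let-7 precursors, was at -0.22 (edgeR adjusted p = 0.20). The libraries were made from purified mRNA and do not measure mature microRNAs. The let-7 and *Mir98* precursor genes had from 0 to 18 reads in any library, and 9 of them were at 0 in all libraries. Of the host transcripts, *Huwe1* fell, with a log2 fold change of -0.35 (edgeR adjusted p = 0.012), and *Wdr82* and *Mir99ahg* were at -0.14 and 0.51 without passing.

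A further 26 genes known as let-7 targets were all tested, of which 8 fell and none rose (11 and 0 at an unadjusted p under 0.05, and 8 and 0 in DESeq2), where 4.41% of all genes tested fell. Their median log2 fold change was -0.37, between that of the 9 oncofetal genes and that of all genes. *Ccnd1* encodes cyclin D1 and fell from 469 and 467 to 256 and 249 CPM (log2 fold change -0.89, SE 0.07, edgeR adjusted p = 0.0013). *Cdc25a*, a phosphatase that activates cyclin-dependent kinases, had a log2 fold change of -1.03, and *Rrm2*, a subunit of ribonucleotide reductase, had one of -0.90 (edgeR adjusted p = 0.0034 and 0.0054). These genes act in the cell cycle. In a separate list of 6 cycling-cell genes 4 fell and none rose (5 and 0 in DESeq2 and at an unadjusted p under 0.05), among them *Top2a* at -0.67, *Pcna* at -0.82 and *Mki67* at -0.40 (edgeR adjusted p from 0.0021 to 0.0098). The part of the cycling genes in the target list was not tested. The 8 calls became 3 without the filter on low counts and 3 with the legacy edgeR method.

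Of 6 RNAs known to be bound by the IGF2BP proteins, 1 fell and 2 rose, where 4.41% of all genes tested fell and 5.15% rose. Their median log2 fold change was 0.19. *Myc* stands in this list and among the let-7 targets. *Igf2* rose from 2674 and 2580 to 3109 and 3174 CPM (log2 fold change 0.26, edgeR adjusted p = 0.016), while the 3 *Igf2bp* genes fell. *H19*, the imprinted neighbour of *Igf2*, rose by 0.29 on the log2 scale (edgeR adjusted p = 0.012). *Actb* fell, with a log2 fold change of -0.20 (edgeR adjusted p = 0.037), and this call was lost with library totals alone (0.061) and with the legacy edgeR method (0.053). Over all these lists 21 genes passed with all 4 libraries. With 1 library left out the number that passed, as over all genes, depended on which group kept 2 libraries.

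**Figure D4:**
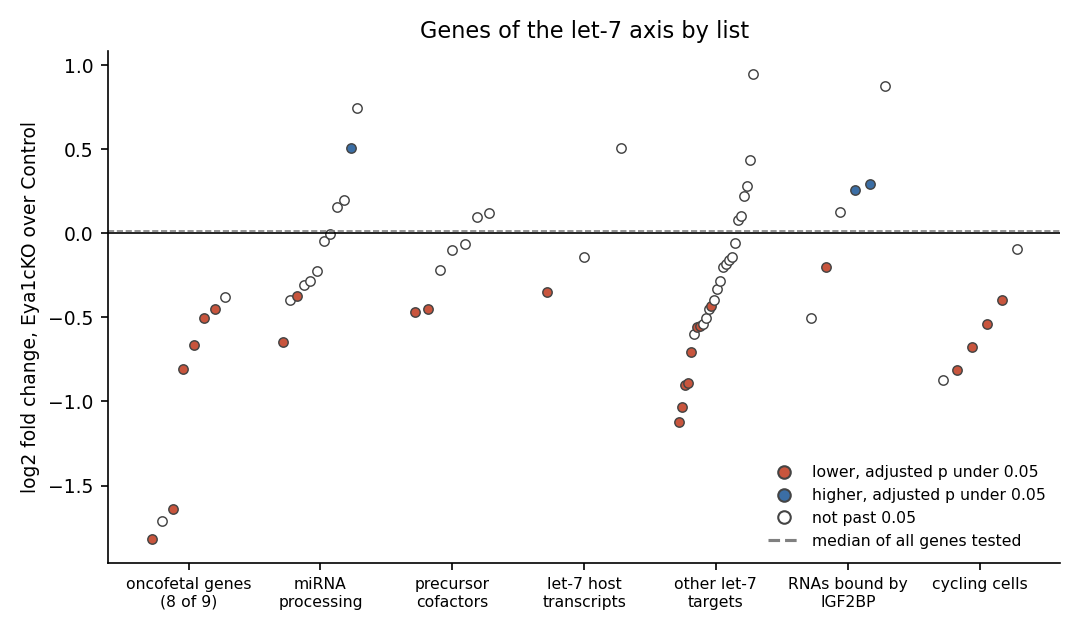
Log2 fold change of *Eya1*cKO over Control for each tested gene of the lists (points), ordered within a list and filled where the edgeR adjusted p was under 0.05, with a dashed line at the median of all genes tested (0.016). The oncofetal genes, drawn without *Lin28a*, which had no reads in *Eya1*cKO, and most of the other let-7 targets lie below 0, and of the 3 called IGF2BP-bound RNAs *Igf2* and *H19* lie above it and *Actb* below.

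Outside the 9 genes, those with a let-7 match in the 3' UTR had values near those of all tested genes with a 3' UTR, of which 5.54% fell and 6.19% rose with a median log2 fold change of 0.034. Leaving out the 9 genes, 537 tested genes held an 8-mer, of which 5.21% fell and 5.59% rose, with a median log2 fold change of 0.023. Among the 13196 tested genes without a 7-mer, 5.46% fell and 6.23% rose, with a median of 0.035. The 3' UTRs of the first set were longer, with a median of 2415 bases against 1072. Among the 6921 genes without a 7-mer whose 3' UTR had 1000 bases or more (median 2035), 6.01% fell and 7.01% rose, with a median log2 fold change of 0.043. Of 26 other tested genes with at least 2 8-mers, 1 fell and none rose in edgeR, and their median was -0.14. The one that fell was *G3bp1*, a stress granule protein (log2 fold change -0.66, edgeR adjusted p = 0.0034). *Mcf2l* with 7 and *Trim6* with 5 8-mers, more than *Trim71*, had log2 fold changes of 0.24 and -0.18 that did not pass (edgeR adjusted p = 0.40 and 0.89). These genes were named after their values were seen.

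**Figure D5:**
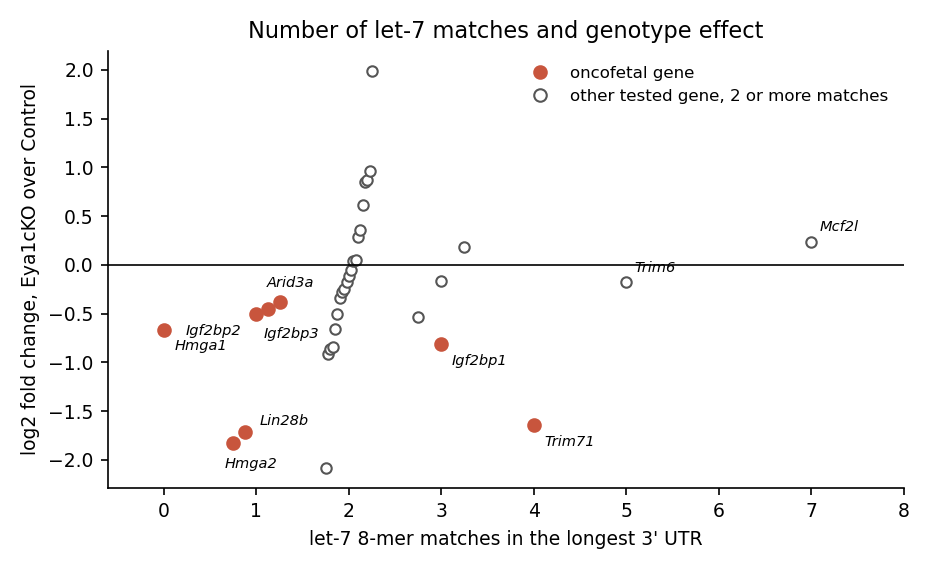
Number of let-7 8-mer matches in the longest 3' UTR (horizontal axis) and log2 fold change of *Eya1*cKO over Control (vertical axis) for 8 oncofetal genes and for the 26 other tested genes with at least 2 matches, spread sideways for legibility. *Trim71* with 4 matches and *Hmga2* and *Lin28b* with 1 each lie near each other, and the other genes scatter on both sides of 0.

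Markers of the cell types that the sort could hold moved with the genotype. Over all genes tested 4.41% fell and 5.15% rose in edgeR, and 30.0% had both *Eya1*cKO libraries below both controls. All 5 nephron progenitor markers (*Six2*, *Cited1*, *Osr1*, *Meox1*, *Sall1*) fell, from a summed 804 to 811 CPM in the controls to 164 to 206 CPM in *Eya1*cKO, with a median log2 fold change of -2.08 beside -1.82 for *Hmga2*. Between the 2 mutant libraries these markers did not all differ in one direction. *Six2*, at 16.7 and 4.56 CPM, was lower in *Eya1*cKO 2, and so were *Osr1*, *Cited1* and *Sall1*. *Meox1* was higher there, at 8.806 and 10.77 CPM. Of the oncofetal genes *Arid3a*, *Trim71* and *Lin28b* were lower in *Eya1*cKO 2, and *Hmga2*, *Hmga1* and *Igf2bp1* were higher. *Igf2bp3* hardly differed, at 106.7 and 108.4 CPM. All 5 podocyte markers rose, from 475 to 489 to 2152 to 2172 CPM, and so did 4 of 4 endothelial markers, from 404 to 415 to 685 to 760.5 CPM. All 5 adrenal cortex markers and all 5 sympathoadrenal markers rose from 10.5 to 15.2 and from 2.61 to 2.80 CPM to 630.5 to 646 and to 320.5 to 359 CPM. Of the 5 ureteric bud markers 2 fell in edgeR (4 at an unadjusted p under 0.05 and 3 in DESeq2), with both *Eya1*cKO libraries below both controls in all 5, a median log2 fold change of -1.63 and a sum that went from 137 to between 37.3 and 58.4 CPM. Nephron epithelium (2 of 4 lower), stroma (1 of 4 lower and 2 higher), neural crest glia (1 of 3 tested higher) and blood and macrophage markers (0 of 3 tested in either direction in edgeR, also in DESeq2 and at an unadjusted p under 0.05) had fewer calls or calls in both directions. No listed marker was at 0 in both controls. The *Eya1*cKO libraries also had fewer reads on genes (17457452 and 22239293 against 35411905 and 37999342) and a larger share of reads on no gene (20.9% and 22.7% against 12.9% and 13.9%). The part of these differences in the fall of the oncofetal genes was not tested.

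The tested genes whose profile over the 4 libraries was nearest to that of *Hmga2*, by Euclidean distance of centred log2 CPM, were *Gm5513*, *Gm8973* and *Eya2*, at distances of 0.0799, 0.11 and 0.118. *Eya2*, the paralogue of *Eya1*, had 859, 943, 119 and 152 reads and fell, with a log2 fold change of -1.88 (edgeR adjusted p = 0.023), whereas *Gm5513* and *Gm8973*, both at low counts, did not pass. Nearest to *Igf2bp1* were *Bahcc1*, *Tcof1* and *Gas1*, at distances of 0.041, 0.0524 and 0.0554, and all 3 fell (edgeR adjusted p from 0.0026 to 0.0035). A profile of 4 libraries in 2 groups mostly records the size of the genotype difference.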

How the data were processed

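The authors prepared random-primed strand-specific libraries from mRNA of sorted cells, sequenced them from one end (75 bp), mapped the reads to mm10 with HISAT2 and counted them per Ensembl gene with HTSeq-count. Raw counts were deposited by the authors, 1 file per library, without normalization. The strand setting of the counting is not given in the sources used here, so genes with an overlapping partner on the other strand are uncertain. HTSeq summary rows (no feature, ambiguous, not unique, not aligned) held 32.4%, 31.8%, 46.1% and 44.2% of the recorded reads in the Control libraries 1 and 2 and the *Eya1*cKO libraries 1 and 2, in this order, and were left out. The labels give 6 kidneys per genotype from 4 females, and the study's methods give other numbers. The authors tested with DESeq2.

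The count tests were run in edgeR 4.0.16 (R 4.3.3), using filterByExpr (minimum count 10), TMM scaling, glmQLFit (legacy = FALSE) and glmQLFTest on genotype over all 4 libraries, with Benjamini-Hochberg adjustment over all genes tested and a threshold of 0.05. The SE was obtained by dividing the size of the log2 fold change by the root of F. CPM use TMM-scaled totals, and FPKM divide them by exonic length in GENCODE M21, a later annotation than the one counted on (symbols were found for 52403 of 52636 identifiers). The limit of detection was taken as 3 counts and covers counting error only, as reads copied by PCR are not independent. Library totals ran from 17457452 to 37999342. The replicates of a group differed by more than sampling noise (chi-square per degree of freedom 9.68 for Control and 49.7 for *Eya1*cKO). The test was tested on simulated data.

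The genes, pathway lists and marker lists were chosen with earlier results of these data known. Named genes were the 9 genes, *Hmga1b*, *Eya1*, up to 3 called genes of smallest p in each direction per pathway list, and the 3 nearest profiles of *Hmga2* and *Igf2bp1*. Other genes are named for a result that turns on them and were chosen after their values were seen. Alternatives were DESeq2 1.42.0, other scalings, filters and quasi-likelihood options, a replicate block, each library left out in turn, *Hmga1* and *Hmga1b* summed, the 7-mer in place of the 8-mer, and ratios without length.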

Additional observations from a re-analysis of the deposited data

How the results depend on the processing

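All 9 genes kept a negative log2 fold change under every alternative in which they were tested, and none was called higher under any. The count of 6 genes called lower was between 5 and 7 under the other scalings, filters and tests and with *Hmga1* and *Hmga1b* summed. The numbers 1 and 2 are shared by the libraries of both genotypes, but nothing in the labels pairs them, and the correlation of the replicate differences was 0.0062 over 19041 genes. With the replicate block 3 of the 9 genes were called lower (*Hmga2*, *Trim71* and *Igf2bp1*), 621 genes were called across the table in place of 1820, and 11 genes of the pathway lists were called lower in place of 18. *Hmga1*, *Igf2bp2*, *Igf2bp3* and *Hmga1b* lost their calls there (adjusted p = 0.076, 0.055, 0.13 and 0.076), as did *Xpo5*, *Tnrc6a* and *Tnrc6b* (0.10, 0.11 and 0.066), and 3 of the other let-7 targets were called lower in place of 8. *Igf2bp3* was also lost with library totals alone (0.052), with no low-count filter (0.072) and with the legacy quasi-likelihood (0.059). *Lin28b* was gained with at least 10 reads in every library (0.038) and with DESeq2 (0.0061). *Lin28a* passed under none (0.052 to 0.71). With no low-count filter 1055 genes were called in all, with DESeq2 3113 and with the legacy quasi-likelihood 1096, and the genes of the pathway lists called lower numbered 11 with no low-count filter and 10 with the legacy quasi-likelihood. Leaving out 1 library at a time gave 0 to 8 of the 9 genes called lower, 0 to 29 and 0 to 7 genes of the pathway lists called lower and higher, and 23 to 7925 genes called in all. The low ends came from leaving out either Control library, when the spread came from the 2 *Eya1*cKO libraries alone and 6 or 5 of the 9 genes had an unadjusted p under 0.05, and the lone library was assumed to vary like the other group. *Hmga2* then had adjusted p of 0.074 and 0.095. The high ends came from leaving out either *Eya1*cKO library, when the spread came from the 2 Control libraries alone and the lone mutant library was assumed to vary like them. The log2 difference of the *Hmga2* to *Hmga1* ratio stayed between -1.37 and -0.98. At 0 reads in *Eya1*cKO, the size of the difference in *Lin28a* was limited by depth.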
